A study of Oryza sativa with 12 samples.

Results

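The heat response of wild type rice seedlings was described from 6 of the 12 RNA-seq libraries of the series, 3 of ZH11 plants kept at 29 °C and 3 of ZH11 plants held at 45 °C. ZH11 is a japonica cultivar, and both groups are labelled wild type. Seedlings were raised in Kimura B nutrient solution in plates at 29 °C, 65% humidity and 13 h of daily light, and were 8 days old when heated. The groups are written WT_29C and WT_45C. The length of the heat is given as 18 h in the sample characteristics and as 42 h in the treatment protocol, and it is not settled here. The other 6 libraries come from a line labelled as a double mutant of GRP3 and GRP162, which encode glycine-rich RNA-binding proteins. They entered the statistical fit and the last comparison only. No label says whether replicates came from separate cultures; p-values therefore reflect the spread among these libraries, which may be technical.

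Heat unfolds proteins, and plant cells answer through heat stress transcription factors, which switch on chaperones. Small heat shock proteins hold unfolded proteins in solution, and HSP100 and HSP70 machines pull apart and refold what has clumped. In leaves, long or severe heat is also known to bring water loss, oxidative damage, a fall in carbon fixation and growth, and a change in hormone balance.

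Values are FPKM, fragment numbers divided by transcript length and by the size of the library. Differences are given on the scale of log2(FPKM + 1) with a standard error, so they understate the change of transcripts near 0. An adjusted p under 0.05 in limma, with Benjamini-Hochberg adjustment over all 20305 loci tested, counted as passing, and the verbs rose and fell are kept for such loci. Where a ratio is given, it is a ratio of mean FPKM. Read depth is unknown from these values.

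The 6 libraries held between 17910 and 18447 loci at FPKM of 1 or more. The mean was 18113 ± 291 (SD, n = 3) at 29 °C and 18244 ± 141 at 45 °C, with overlap between the groups (exact permutation test, two-sided p = 0.6). With 3 libraries against 3 this test cannot go below 0.1. At a threshold of FPKM 0.5 the heated libraries held 362 more loci on average, without overlap (exact p = 0.1, the lowest possible). At FPKM 5 the difference was -198.7 (exact p = 0.7). Pearson correlations of log2(FPKM + 1) across loci ran from 0.835 to 0.858 between the temperatures, from 0.953 to 0.954 within WT_29C and from 0.940 to 0.973 within WT_45C. A pair of libraries stood apart. The 10 most abundant loci took 21.0% of the FPKM sum in WT_29C replicate 2 and 23.7% in WT_45C replicate 3, against 11.4% to 15.4% in the other 4. WT_45C replicate 3 was the lowest of the heat libraries at 1670 of the 2701 loci that rose, and also at 1825 of the 3204 that fell. Without this pair 2087 loci rose and 2370 fell. Without WT_45C replicate 1 alone, 1791 rose and 2354 fell.

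The label of the tissue is whole plant, and it was checked against a part of the markers planned for this. Other planned markers of leaf and root were left out, because their names did not pass a check or were not entered. No marker of seed storage was used. The leaf transcripts PETE (plastocyanin) and RCA (Rubisco activase) were abundant, with 1118 to 2171 and 944 to 1943 FPKM at 29 °C, whereas CAB1R, an antenna protein gene, lay between 0.31 and 1.87. Of 5 root uptake carriers, LSI2, NRT2.1, IRT1 and YSL15 stayed below 1 FPKM in every wild type library, and LSI1 alone was clearly present at 29 °C. The summed level of these 5 carriers ran from 25.04 to 39.1 FPKM at 29 °C and from 1.39 to 2.16 at 45 °C. Its part in the other differences was not tested. The seed amylases AMY1A, AMY3D and AMY3E summed to at most 0.42 FPKM in any library.

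At 45 °C 2701 loci rose (13.3% of those tested) and 3204 fell (15.8%), so that 29.1% passed in all. The median difference over all loci was -0.04. With median-of-ratios scaling 3549 rose and 3291 fell, and the median was 0.02. More loci rose than fell also without WT_29C replicate 3 (2514 and 2255) or WT_45C replicate 3 (2623 and 2313). Which direction had more calls, and the shares over all loci, thus depend on scaling and libraries. Of the 2701 risers 447 passed a log2 difference of 2 and 57 passed 4, against 354 and 19 of the 3204 that fell. The 26 gene lists described below, with a 27th of a single gene, hold 292 named genes, of which 247 passed the filter on low values and 45 did not. Among those tested, 72 rose, 45 fell and 130 did not pass. The lists were written from knowledge of heat biology, with earlier results of these data known. Their share of calls is therefore no measure of the transcriptome. Counts of calls in a list are to be read beside the shares over all loci given above.

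**Figure D1:**
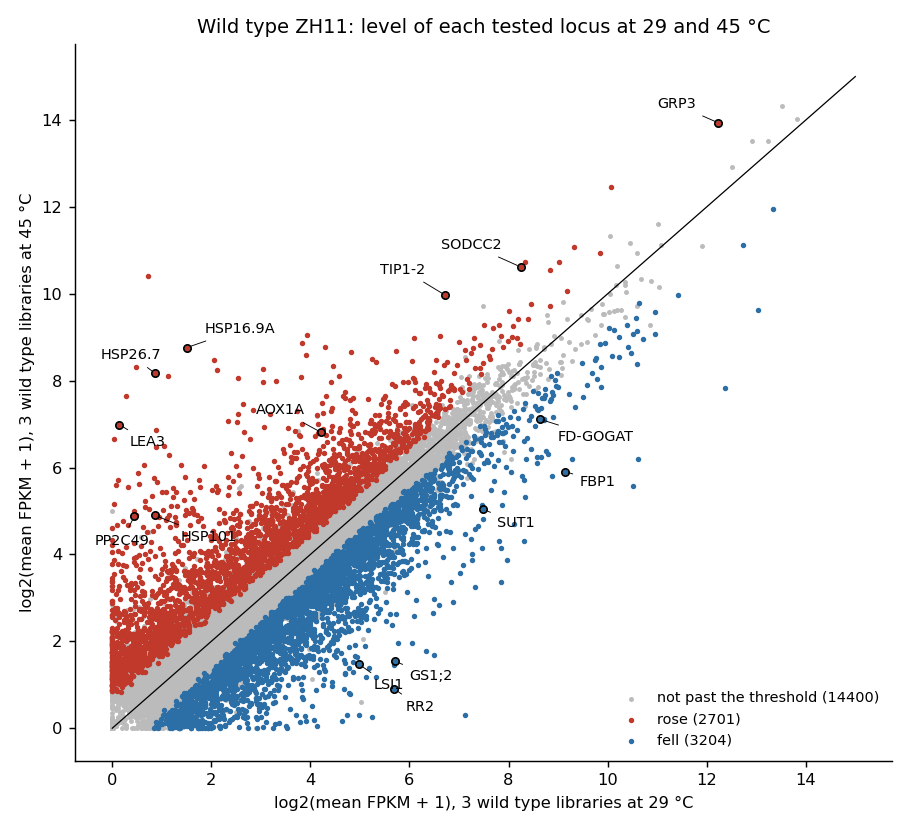
Each point is 1 of the 20305 tested loci, with log2(mean FPKM + 1) over 3 wild type libraries at 29 °C on the horizontal and at 45 °C on the vertical axis; red points rose, blue points fell and grey points did not pass. The labelled HSP26.7, HSP16.9A, HSP101 and LEA3 lie at the upper left, near 0 at 29 °C, and RR2, GS1;2 and LSI1 at the lower right.

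**Figure D2:**
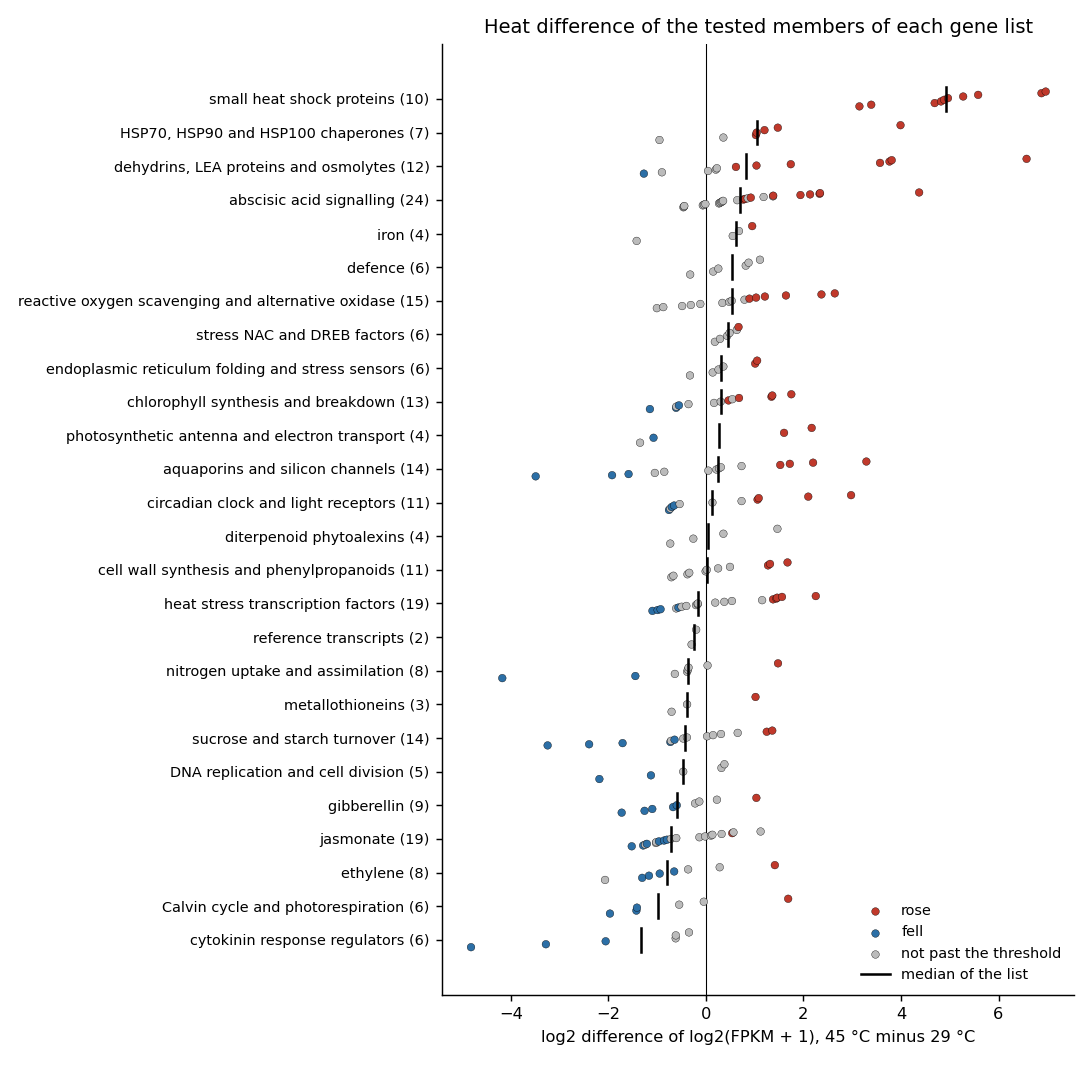
Each dot is the log2 difference (45 °C minus 29 °C) of a tested gene, by list, with the number tested in brackets and a bar at the list's median. Small heat shock proteins have the highest median (4.92) and cytokinin response regulators the lowest (-1.34).

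Small heat shock proteins had the highest median difference of the lists. All 10 tested members rose, beside 13.3% of all loci, and in each of them every WT_45C value lay above every WT_29C value. Over all loci tested, 42.6% had groups without overlap, 19.2% higher and 23.4% lower at 45 °C. The median difference was 4.92, against -0.04 over all loci. HSP26.7, which works in plastids, was at 0.42, 1.14 and 0.87 FPKM at 29 °C and at 356, 437 and 70.3 at 45 °C (log2 difference 6.97 ± 0.61, limma adjusted p = 1.57e-05). HSP16.9A, a cytosolic member, stood at 1.77, 1.76 and 1.96 and then at 478, 713 and 107 FPKM (6.88 ± 0.58, adjusted p = 1.34e-05). Both were close to silent at the lower temperature and were lowest in replicate 3 among the heated libraries. HSP17.9A reached the highest mean of the family, from 17.85, 12.4 and 12.8 FPKM to 563, 785 and 238 (4.96 ± 0.41). HSP16.9B went from 0.52, 5.64 and 8.21 FPKM to 318, 407 and 77.6 (5.58 ± 0.69). HSP23.2, of the endoplasmic reticulum, was listed at 0 in 2 libraries at 29 °C and at 57.6, 84.3 and 13.5 FPKM at 45 °C. On the scale of log2(FPKM + 1) the gap between heated replicates is wide for these genes but smaller than the gap between temperatures. In FPKM it is not smaller. The mitochondrial HSP24.1 differed in this, with 15.8, 14.7 and 26.0 FPKM at 29 °C and 195, 196 and 212 at 45 °C, so that replicate 3 was the highest (3.39 ± 0.32, adjusted p = 2.31e-05). The summed level of the 10 genes was 61.3, 76.4 and 97.3 FPKM at 29 °C and 2884, 3650.3 and 1124 at 45 °C. Scaled by median-of-ratios factors, the heated sums were 2789.9, 3605 and 1295, so the low value of replicate 3 was seen with this scaling as well. HSP16.9A, HSP16.9B and HSP16.9C are near-identical neighbours, and reads that fit several of them may have been divided between them.

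Of the large chaperones, 5 of 7 tested rose and none fell, beside 13.3% and 15.8% of all loci. The other genes entered for this list, among them those entered as HSP70 and GRP94, did not pass the check against the RefSeq table. HSP81-1, an HSP90 gene with 40.7, 1.92 and 38.7 FPKM at 29 °C and 7.56, 7.71 and 7.96 at 45 °C, passed as lower without WT_29C replicate 2 (adjusted p = 0.0219). HSP101, the cytosolic disaggregase needed for thermotolerance in plants, went from 0.88, 0.37 and 1.20 FPKM to 30.9, 38.6 and 17.1, a ratio of 35.3 (3.99 ± 0.35, adjusted p = 1.55e-05). The groups were far apart. Its organelle relatives were present before heat and changed less. CLPB-P, the plastid form, was 2.42 times higher at 45 °C (34.7, 24.5 and 27.8 against 79.7, 86.0 and 44.6 FPKM), and the mitochondrial CLPB-M 2.87 times (1.47 ± 0.29). HSP81-2, an HSP90, rose from 355, 272 and 380.3 FPKM to 728, 720.2 and 594 (1.03 ± 0.24, adjusted p = 0.00771). Its neighbour and close copy HSP81-3 did not pass, with 257, 204 and 282 against 327, 344 and 278 FPKM (adjusted p = 0.198), and reads shared by the copies may have been divided between them. BIP1, the HSP70 of the endoplasmic reticulum, rose from 40.5, 21.9 and 42.9 FPKM to 65.7, 52.7 and 100.5 (adjusted p = 0.0173). This call ended without WT_29C replicate 2 (0.0656) or WT_45C replicate 3 (0.0693). In the list of endoplasmic reticulum folding genes 2 of 6 rose and none fell, beside 29.1% of all loci that passed in either direction. PDIL1-1, a protein disulphide isomerase, was 2.05 times higher (56.9, 41.1 and 60.1 against 107, 81.6 and 136 FPKM), but not past the threshold without the pair of libraries that stood apart (adjusted p = 0.0593). BZIP60 rose to 2.16 times its level at 29 °C. The lectin chaperone CRT1 did not pass (88.7, 66.0 and 90.0 against 90.5, 92.9 and 133 FPKM, adjusted p = 0.266). In WT_45C the highest values of BIP1, PDIL1-1 and CRT1 were in replicate 3, the reverse of the order seen for the cytosolic small heat shock proteins.

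Heat stress transcription factors moved in both directions, with 5 of 19 tested members higher, 4 lower and a median difference of -0.17. Over all loci 13.3% rose and 15.8% fell. HSFB2C, a class B factor, had the largest difference, from 14.1, 14.4 and 22.8 FPKM to 84.2, 99.2 and 69.4 (2.25 ± 0.22, adjusted p = 2.69e-05). HSFC1B rose from 11.8, 6.76 and 16.2 FPKM to 41.9, 30.6 and 25.4. HSFA2C, a class A activator, rose from 17.3, 11.8 and 19.9 FPKM to 48.1, 47.1 and 35.3 (1.38 ± 0.25, adjusted p = 0.00184). These 3 made up the risers above 20 FPKM. HSFA2A and HSFB2B also rose but stayed under 7 FPKM at 45 °C. HSFA1, whose relatives in tomato and Arabidopsis act at the head of the response, fell from 40.2, 30.4 and 40.4 FPKM to 21.4, 19.9 and 13.7 (-0.99 ± 0.22, adjusted p = 0.00577). HSFA2D fell from 22.29, 28.8 and 25.16 FPKM to 11.3, 16.1 and 7.82, but did not pass once WT_45C replicate 3 was omitted (adjusted p = 0.0522). HSFA5 fell with a call lost in 8 of 16 alternative settings, and HSFC1A with one lost in 7 of the 15 in which it was tested. Without WT_45C replicate 3 HSFA1 alone was left among those that fell, and 2 were left without WT_29C replicate 3, WT_45C replicate 1 or WT_45C replicate 2. HSFA2E, the member with the highest mean that did not pass, read 36.2, 37.1 and 45.9 FPKM at 29 °C and 30.3, 32.7 and 21.4 at 45 °C (adjusted p = 0.066).

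**Figure D3:**
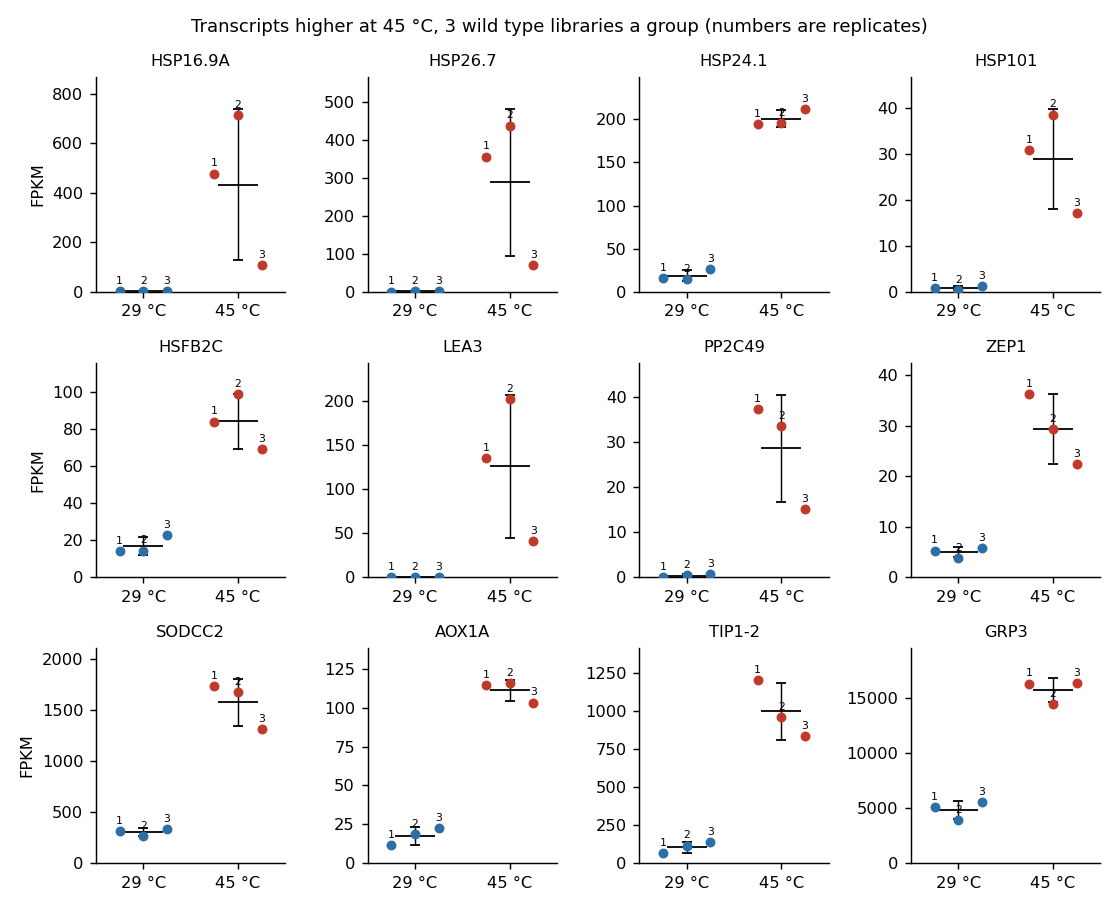
FPKM of 12 transcripts in each wild type library, 29 °C in blue and 45 °C in red, with the replicate number above each point and a bar at the mean ± SD (n = 3). The groups do not overlap in any panel; in WT_45C replicate 3 is the lowest in 10 of the 12 panels and the highest for HSP24.1 and GRP3.

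Abscisic acid (ABA) is the hormone of water shortage, and its receptors act by blocking clade A PP2C phosphatases, which frees SnRK2 kinases (SAPK in rice). Of 24 tested genes of this pathway 9 rose and none fell, beside 13.3% and 15.8% of all loci. Their median difference was 0.71, against -0.04 over all loci. Without WT_45C replicate 3 the risers numbered 15, and without the pair that stood apart 14; SAPK2 passed as lower without WT_29C replicate 3 (adjusted p = 0.0362). Early in the pathway, ZEP1, the zeaxanthin epoxidase that supplies ABA precursors, rose from 5.31, 3.80 and 5.73 FPKM to 36.3, 29.4 and 22.4 (2.34 ± 0.26, adjusted p = 6.69e-05). NCED3, a cleavage enzyme of ABA synthesis, did not pass, at 0.80, 2.18 and 2.26 against 9.03, 7.83 and 1.47 FPKM. The first 2 heated libraries lay above all controls and the third inside their range, and NCED3 passed without WT_45C replicate 3 (adjusted p = 0.0101). None of the 3 ABA 8'-hydroxylases, which degrade the hormone, passed with all libraries. ABA8OX2 read 5.23, 10.2 and 8.66 against 27.5, 55.8 and 6.29 FPKM and passed without WT_45C replicate 3 (adjusted p = 0.0177). Among 9 PP2C genes 4 rose and none fell, and 7 rose without WT_45C replicate 3. PP2C49 went from 0, 0.45 and 0.64 FPKM to 37.1, 33.5 and 15.1 (4.37 ± 0.39, adjusted p = 1.59e-05). PP2C68 went from 3.96, 4.41 and 6.65 FPKM to 37.1, 32.7 and 19.4 (2.33 ± 0.34). PP2C51 rose at a low level, to at most 4.53 FPKM. The call of PP2C50 (34.0, 27.1 and 28.9 against 64.5, 64.2 and 33.3 FPKM) ended with 5 of the 6 wild type libraries left out in turn (adjusted p up to 0.142). PP2C06, the most abundant that did not pass, had 124 and 137 FPKM in the first 2 heated libraries and 57.9 in replicate 3, within the range of 53.2 to 71.0 at 29 °C. Without replicate 3 it passed (adjusted p = 0.0104). Of 8 SnRK2 kinases 3 rose. SAPK10 changed most, from 7.68, 5.08 and 8.19 FPKM to 41.8, 37.6 and 23.97 (2.14 ± 0.23, adjusted p = 6.27e-05), and SAPK8 was the most abundant of them, at 69.7, 50.2 and 66.9 against 136, 128 and 92.9 FPKM. BZIP23, an ABA-responsive transcription factor, was 2.89 times higher (9.68, 13.2 and 12.6 against 40.6, 43.1 and 18.9 FPKM). In the list of stress NAC and DREB factors, NAC5 was the only member of 6 tested to pass, and its call was lost with 4 of the 6 libraries left out in turn (adjusted p up to 0.165). SNAC2 had 142 and 150.3 FPKM in the first 2 heated libraries but 20.6 in replicate 3, below the 26.4 to 67.3 of the controls, and passed without replicate 3 (adjusted p = 0.0175), as did DREB2B (0.00618).

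Transcripts for proteins that protect drying cells, and for enzymes that act on protective solutes, rose in 7 of 12 tested cases, and 1 fell. Over all loci 13.3% rose and 15.8% fell. Proteins and solutes were not measured. LEA3, a late embryogenesis abundant protein, was at 0.05, 0.17 and 0.09 FPKM at 29 °C and at 135, 202 and 41.1 at 45 °C (6.58 ± 0.61, adjusted p = 2.17e-05). Of the 4 neighbouring Rab16 dehydrin genes 3 rose. RAB16A went from 2.62, 0.86 and 0.31 FPKM to 30.9, 57.1 and 12.1, RAB16B from 1.4, 0 and 0.51 to 33.1, 21.5 and 10.8, and RAB16D from 0.06 or less to between 4.99 and 25.9. RAB16C was the exception, with 17.72, 7.72 and 4.32 against 9.85, 9.10 and 7.68 FPKM. P5CS1, which makes proline, was 2.15 times higher (1.04 ± 0.24, adjusted p = 0.00625). BADH2, a betaine aldehyde dehydrogenase, rose from 36.5, 38.5 and 41.1 FPKM to 70.2, 62.2 and 48.9 (adjusted p = 0.0126, but 0.0638 without WT_45C replicate 1). Its relative BADH1 did not pass (28.1, 26.1 and 36.1 against 40.3, 37.5 and 28.4 FPKM). TPP7, a trehalose-6-phosphate phosphatase, was the member that fell, from 31.0, 53.7 and 40.2 FPKM to 20.0, 16.2 and 13.2 (-1.27 ± 0.21, adjusted p = 0.000869).

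Transcripts of reactive oxygen scavengers rose in 6 of 15 tested cases and none fell, beside 13.3% and 15.8% of all loci. The catalase CATA, at 8.26, 7.89 and 13.5 against 2.45, 2.36 and 11.7 FPKM, passed as lower without WT_45C replicate 3 (adjusted p = 0.00443). The cytosolic copper/zinc superoxide dismutase SODCC2 became one of the abundant transcripts, from 308, 265 and 335 FPKM to 1734, 1669 and 1309 (2.37 ± 0.24, adjusted p = 4.14e-05). The other cytosolic gene, SODCC1, did not pass, at 356, 359 and 379 against 272, 329 and 283 FPKM (adjusted p = 0.37). Between them, at 29 °C SODCC2 had the lower FPKM in every library, and at 45 °C it had the higher FPKM in every library. The plastid form SODCP rose from 111, 110.1 and 102 FPKM to 404, 343 and 277, and the manganese form SODA was 1.9 times higher. Of 8 ascorbate peroxidases 2 rose. The cytosolic APX1 went from 266, 297 and 315 FPKM to 676, 784 and 587 (1.21 ± 0.24, adjusted p = 0.00298), and the call of APX2 ended with 5 of the 6 wild type libraries left out in turn (up to 0.138). AOX1A, the alternative oxidase of mitochondria, rose from 11.3, 18.8 and 22.6 FPKM to 114, 116 and 103 (2.64 ± 0.35, adjusted p = 0.000199), with little spread among heated libraries.

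Water and silicon channels split, with 4 of 14 tested members higher and 3 lower, beside 13.3% and 15.8% of all loci. TIP1-2, a channel of the vacuole membrane, gave the largest rise, from 64.9, 114 and 136 FPKM to 1206, 958 and 834, a ratio of 9.55 (3.29 ± 0.32, adjusted p = 2.89e-05). TIP1-1 rose from 154, 191 and 267 FPKM to 596, 767 and 414. TIP4-1 moved the other way, from 42.8, 26.9 and 58.8 FPKM to 13.2, 10.3 and 15.8 (-1.58 ± 0.33). At the plasma membrane PIP2-6 rose from 38.1, 19.8 and 35.9 FPKM to 105, 102 and 97.8. PIP2-7 was lower (93.9, 45.1 and 119 against 15.6, 11.3 and 46.2 FPKM), and its call ended with 4 of the 6 libraries left out in turn (adjusted p up to 0.0732). The abundant PIP1-1 did not pass (446, 533 and 749 against 713, 934 and 419 FPKM). The silicon channels parted as well. LSI1, which loads silicon into roots, fell from 38.6, 28.7 and 24.4 FPKM to 2.14, 1.84 and 1.36, a ratio of 17.2 (-3.49 ± 0.31, adjusted p = 1.51e-05). LSI6, which unloads it from the xylem in shoots, rose from 25.8, 19.0 and 18.4 FPKM to 96.2, 76.0 and 133 (2.20 ± 0.27, adjusted p = 0.00012). In RNA of whole seedlings, fewer cells of a type and less RNA per cell cannot be told apart.

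GRP3 (LOC_Os03g46770) was among the most abundant transcripts of heated seedlings. It took 0.669% to 0.931% of the FPKM sum at 29 °C and 2.41% to 2.92% at 45 °C, with 5066, 3879 and 5489 FPKM in the first group and 16274, 14427 and 16321 in the second. The groups did not overlap (1.72 ± 0.52, adjusted p = 0.0273). The call ended with any single wild type library left out (adjusted p from 0.0511 to 0.0914). GRP162 (LOC_Os12g43600) read 1121, 1002 and 1033 FPKM at 29 °C and 2368, 1605 and 3719.8 at 45 °C, also without overlap, and did not pass (adjusted p = 0.438). The spread behind these p-values was estimated over all 12 libraries, so it includes that of the line labelled as a double mutant of GRP3 and GRP162. In the fit of the 6 wild type libraries alone GRP162 passed (adjusted p = 0.0486) and GRP3 did not (0.0537). Without both replicate 1 libraries of the mutant line GRP162 passed (limma adjusted p = 0.0135) and GRP3 kept its call. Whether GRP162 passed thus depended on the libraries in the fit. These genes are close relatives, and shared reads may have been divided between them. Their names come from the series title and their loci from published assignments that could not be checked against the RefSeq table. TOGR1, an RNA helicase that protects growth in hot conditions in rice, did not pass (11.9, 12.5 and 12.9 against 20.4, 14.6 and 12.4 FPKM).

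Carbon fixation and photorespiration genes were lower in 3 of 6 tested cases and higher in 1, beside 15.8% and 13.3% of all loci. Their median difference was -0.98. Carbon fixation is represented by FBPASE and RCA only. The other genes entered for it, among them those of the Rubisco small subunit, did not pass the check against the RefSeq table. FBPASE, the plastid fructose-1,6-bisphosphatase of the Calvin cycle, fell from 804, 567 and 578 FPKM to 141, 214 and 145 (-1.97 ± 0.34, adjusted p = 0.0013). GLO5, a glycolate oxidase, fell from 2083, 1166 and 1403 FPKM to 517, 638 and 533 (-1.42 ± 0.30, adjusted p = 0.0042). GDCH, the H protein of glycine decarboxylase, went from 1908, 1509.7 and 934 FPKM to 476, 714 and 418, with a call that ended with 4 of the 6 libraries left out in turn (up to 0.0942). Not all abundant leaf transcripts moved in this way. RCA overlapped between the groups (987, 1643 and 1054 FPKM at 45 °C, adjusted p = 0.961), and GLO1 did not pass (2328, 1472 and 1809.9 against 1200.4, 1378 and 1201 FPKM, adjusted p = 0.156). GLO3, a minor glycolate oxidase, was higher, with 3.29, 1.77 and 4.61 against 13.4, 21.1 and 6.0 FPKM, and lost its call with 3 of the 6 libraries left out in turn (up to 0.0617).

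Of 4 tested genes for light harvesting and electron transport 2 rose and 1 fell, beside 13.3% and 15.8% of all loci. Most antenna genes entered for this list did not pass the check against the RefSeq table. PETE went from 2171, 1281 and 1118 FPKM to 634, 778 and 675 (-1.07 ± 0.34, adjusted p = 0.0331), a call lost with 5 of the 6 libraries left out in turn (up to 0.124). The antenna genes LHCB2 and CAB1R rose from low levels. LHCB2 read 0.81, 1.66 and 2.75 FPKM at 29 °C and 13.9, 13.1 and 6.82 at 45 °C (2.17 ± 0.37, adjusted p = 0.00105). CAB2R was lower in every heated library without passing (17.3, 4.79 and 20.9 against 4.33, 4.47 and 3.81 FPKM), and passed without WT_29C replicate 2 (adjusted p = 0.0286). For chlorophyll, 3 of the 4 breakdown genes rose and 1 did not pass, whereas of 9 tested genes of synthesis 2 rose and 3 fell. These counts, too, stand beside 13.3% of all loci that rose and 15.8% that fell. SGR, the stay-green protein that starts breakdown, went from 4.0, 4.09 and 9.83 FPKM to 22.6, 29.1 and 13.8 (1.75 ± 0.37, adjusted p = 0.00378). RCCR1, a later enzyme, rose from 46.4, 25.2 and 59.4 FPKM to 116, 149.6 and 68.6, but not without WT_29C replicate 2 (0.0573) or WT_45C replicate 2 (0.0566). NYC1, the chlorophyll b reductase, had the weakest call of them, lost with 4 of the 6 libraries left out in turn (up to 0.166). In synthesis, YGL1, the chlorophyll synthase, fell from 82.4, 45.0 and 58.5 FPKM to 23.7, 26.66 and 29.8 (-1.15 ± 0.23, adjusted p = 0.00332), whereas DVR, the divinyl reductase, rose from 20.2, 12.5 and 14.3 to 42.4, 38.1 and 42.9 (1.36 ± 0.19). The calls of CHLI, CHLD and GSA were lost in 8 to 10 of the 16 alternative settings, so that 1 synthesis gene rose with any single wild type library left out. HEMA1, at the entry of the pathway, did not pass (46.5, 27.5 and 20.4 against 21.0, 25.7 and 22.4 FPKM).

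Several genes for sucrose synthesis and sugar transport fell, and others did not pass. FBP1, the cytosolic fructose-1,6-bisphosphatase that leads to sucrose, went from 789.8, 510.2 and 398 FPKM to 41.2, 84.2 and 51.6, a ratio of 9.59 (-3.24 ± 0.52, adjusted p = 0.000732). SUT1, a sucrose transporter, went from 208, 218 and 108 FPKM to 39.6, 27.8 and 28.4 (-2.39 ± 0.30, adjusted p = 0.000145). SWEET14, a sugar efflux carrier, fell from 18.3, 21.9 and 19.0 FPKM to 4.63, 5.67 and 5.74 (-1.71 ± 0.31). None of these groups overlapped. Calls of SUT2 and SWEET4 in the same direction were lost with 4 and 5 of the 6 libraries left out in turn. SWEET13 (14.9, 5.57 and 10.5 against 8.22, 4.15 and 4.74 FPKM) and SPP1, a sucrose phosphatase (30.7, 26.0 and 22.2 against 18.3, 23.0 and 15.35 FPKM), did not pass (adjusted p = 0.134 and 0.114). On the side of sugar use and starch breakdown, SUS4, a sucrose synthase, rose from 16.8, 15.2 and 26.2 FPKM to 45.0, 56.9 and 38.5 (1.25 ± 0.25), and the amylase AMY3B rose to between 3.22 and 3.63 FPKM. In the whole list of sucrose and starch genes 2 of 14 rose, 5 fell and 7 did not pass, beside 29.1% of all loci that passed. Those that fell in the list numbered 3 without WT_29C replicate 1, WT_29C replicate 3 or WT_45C replicate 3. SPP2, another sucrose phosphatase, was among those that did not pass (31.4, 31.8 and 30.3 against 33.0, 36.2 and 26.72 FPKM).

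Of 8 tested genes of nitrogen uptake and assimilation 2 fell and 1 rose, beside 29.1% of all loci that passed in either direction. GS1;2, a cytosolic glutamine synthetase, fell from 46.9, 68.4 and 38.8 FPKM to 1.5, 2.89 and 1.31 (-4.17 ± 0.41, adjusted p = 3.34e-05). Its relative GS1;1 stayed between 32.9 and 54.8 FPKM in all 6 libraries and did not pass. FD-GOGAT, the ferredoxin-dependent glutamate synthase of leaves, fell from 579, 293 and 310.1 FPKM to 122, 158 and 132 (-1.45 ± 0.32, adjusted p = 0.00556). GS2, its plastid partner, overlapped between the groups (1291, 899 and 733 against 694, 863 and 677.8 FPKM, adjusted p = 0.411). NADH-GOGAT2 rose from at most 0.32 FPKM to at most 3.39, with a call lost with 5 of the 6 libraries left out in turn (up to 0.126).

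**Figure D4:**
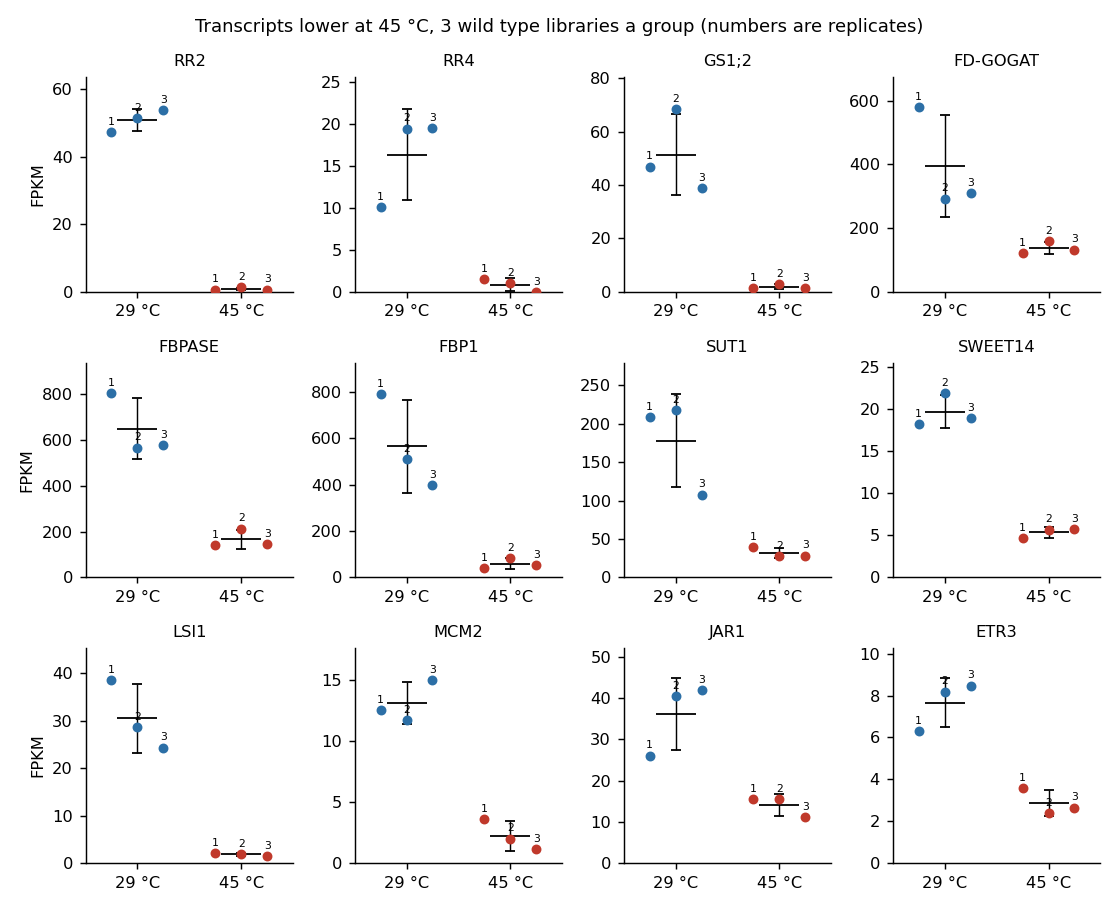
FPKM of 12 transcripts in each wild type library, 29 °C in blue and 45 °C in red, with the replicate number above each point and a bar at the mean ± SD (n = 3). No panel shows overlap between the groups; RR2, GS1;2 and LSI1 lie below 3 FPKM in every heated library.

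Type-A response regulators, which cytokinin switches on and which damp its signal, fell in 3 of 6 tested cases, beside 15.8% of all loci. No tested member had a positive difference. Of the 8 listed members 2 lay below the filter. RR2 had the largest fall of any gene in the lists, from 47.4, 51.4 and 53.9 FPKM to 0.63, 1.33 and 0.64 (-4.82 ± 0.43, adjusted p = 1.78e-05). RR4 fell from 10.1, 19.4 and 19.5 FPKM to 1.49, 1.03 and 0 (-3.28 ± 0.60, adjusted p = 0.00177). RR9 fell from 3.49, 12.4 and 6.08 FPKM to 0.91, 1.41 and 0.29, but not without the pair of libraries that stood apart (adjusted p = 0.0607). RR10, a close copy of RR9, did not pass (6.41, 8.98 and 8.28 against 4.95, 5.43 and 3.95 FPKM, adjusted p = 0.0765), and shared reads may have been divided between these copies. The summed level of the list was 69.6, 96.0 and 90.4 FPKM at 29 °C and 9.34, 11.6 and 5.44 at 45 °C.

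Gibberellin genes were lower in 5 of 9 tested cases and higher in 1, beside 15.8% and 13.3% of all loci. KO2, the ent-kaurene oxidase, fell from 6.11, 6.23 and 18.1 FPKM to 2.69, 1.32 and 2.17 (-1.73 ± 0.42, adjusted p = 0.00938). CPS1, the first enzyme of the path, fell from 2.56, 1.62 and 0.67 FPKM to 0.14 or less, with an adjusted p of 0.053 without the pair that stood apart. Calls of KAO, KS1 and GID2 were lost with 3, 5 and 5 of the 6 libraries left out in turn, as was the rise of GA20OX2 with 5. The number that fell was 2 to 4 with 1 wild type library left out. The receptor GID1 did not pass (75.5, 53.1 and 77.4 against 58.2, 63.8 and 52.4 FPKM).

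Of 6 tested genes of ethylene perception and signalling 4 fell and none rose, beside 15.8% and 13.3% of all loci. The receptors ETR3 (6.32, 8.19 and 8.48 against 3.58, 2.38 and 2.64 FPKM, -1.17 ± 0.26) and ERS2 (8.65, 7.84 and 11.6 against 3.37, 2.61 and 3.52 FPKM, -1.31 ± 0.30) were lower, and ERS1 and ETR2 did not pass. EIL1, the transcription factor at the end of the path, fell from 103, 95.0 and 130.4 FPKM to 56.0, 66.8 and 46.4 (-0.95 ± 0.21, adjusted p = 0.00524). The fall of EIN2, which stands between them, was lost with 5 of the 6 libraries left out in turn (up to 0.0949). Of the 2 tested genes of ethylene synthesis ACS2 rose, from at most 0.15 FPKM to 1.22, 1.17 and 3.52, but not without the pair of libraries that stood apart (adjusted p = 0.0731), and ACO1 did not pass (12.2, 9.47 and 22.28 against 3.28, 1.89 and 2.53 FPKM, adjusted p = 0.0529). In the fit of the wild type libraries alone ACO1 passed as lower (0.00417).

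For jasmonate, 4 of 6 genes of synthesis and conjugation fell, and 1 of 10 JAZ repressors did, beside 15.8% of all loci. JAR1, which joins jasmonate to isoleucine to give the active form, went from 26.1, 40.4 and 41.9 FPKM to 15.6, 15.6 and 11.1 (-1.29 ± 0.23, adjusted p = 0.00154). OPR7, a reductase of the pathway, went from 42.0, 41.8 and 39.2 FPKM to 22, 21.4 and 26.3 (-0.80 ± 0.16). AOC, the cyclase, fell from 23.9, 58.5 and 46.3 FPKM to 15.8, 16.2 and 18.6, and AOS2 from 1.61 to 2.54 FPKM to at most 0.11. Each of these 4 passed with any single wild type library left out, but AOC did not without the pair that stood apart (adjusted p = 0.0631). Of the receptors, COI1A fell from 48.4, 40.1 and 51.6 FPKM to 26.1, 26.1 and 23.4 (-0.86 ± 0.18), whereas COI2 rose with a call lost with 3 of the 6 libraries left out (up to 0.118). The repressor JAZ4 fell from 51.4, 59.6 and 47.6 FPKM to 29.4, 24.2 and 26.3 (-0.96 ± 0.17, adjusted p = 0.00166). JAZ7, more abundant on average, did not pass (62.1, 136 and 57.1 against 27.3, 32.6 and 61.9 FPKM) unless WT_45C replicate 3 was left out (adjusted p = 0.0456).

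Most other JAZ genes were high in a single control library. JAZ10 read 4.54, 99.0 and 0.88 FPKM at 29 °C and 9.61, 11.1 and 14.8 at 45 °C, and JAZ6 read 37.5, 154 and 29.9 and then 30.9, 32.1 and 38.4. WT_29C replicate 2 was the highest of all 6 libraries for both. Without this library JAZ9 and JAZ11 passed as higher (adjusted p = 0.00467 and 0.0485). The summed level of the 10 JAZ genes was 565.5 FPKM there, against 113.5 to 176.4 in the other 5 libraries. WRKY factors of the defence list were high in the same library and in WT_45C replicate 3, with summed levels of 93.1 and 133 FPKM against 11.1 to 30.5 elsewhere. PBZ1, a pathogenesis-related protein, was at 161 FPKM in WT_45C replicate 3 and at 2.47 to 40.4 in the others. The diterpenoid phytoalexin genes, most of which were below the filter, summed to 41.4 FPKM in WT_45C replicate 3 and to 2.21 to 5.84 in the rest. None of 6 defence genes and none of 4 tested phytoalexin genes passed, beside 29.1% of all loci. Among these phytoalexin genes was CYP701A8 (1.86, 1.92 and 3.27 against 2.12, 1.20 and 9.96 FPKM). CYP99A2 passed as higher without WT_45C replicate 2 (adjusted p = 0.0171). The part of these library differences in other results was not tested. JAZ10, JAZ6 and the WRKY and phytoalexin sums were picked after their values were seen.

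**Figure D5:**
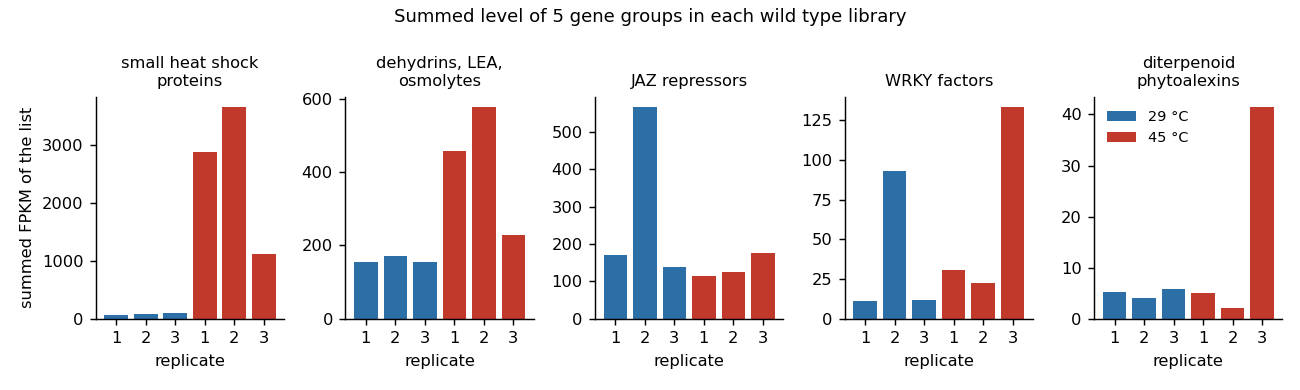
Bars give the summed FPKM of the small heat shock protein, dehydrin, JAZ, WRKY and phytoalexin genes in each wild type library (blue 29 °C, red 45 °C). WT_29C replicate 2 stands out for JAZ (565.5 FPKM), and WT_45C replicate 3 is low for small heat shock proteins (1124 FPKM) and high for WRKY (133 FPKM) and phytoalexin genes (41.4 FPKM).

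Cellulose synthases of the secondary wall rose. CESA4, CESA7 and CESA9, which build secondary walls in rice, went from near 0 to no more than 4.76 FPKM. CESA9 went from 0, 0.11 and 0 FPKM to 4.76, 1.87 and 1.18 (1.67 ± 0.31, adjusted p = 0.00179). None of the other 6 cellulose synthases passed, with differences from -0.71 to 0.25, but CESA3 passed as lower without WT_29C replicate 2 (adjusted p = 0.013) and CESA2 as higher without WT_29C replicate 3 (0.0431). In the whole cell wall list 3 of 11 rose and none fell, beside 29.1% of all loci that passed in either direction. 4CL3, a lignin precursor enzyme, did not pass (25.7, 25 and 22.2 against 21.9, 20.0 and 15.5 FPKM). Cell division could be read from few genes. Of 13 listed genes 8 lay below the filter, and of 5 tested 2 fell, beside 15.8% of all loci. MCM2, a subunit of the replicative helicase, fell from 12.5, 11.7 and 15.0 FPKM to 3.57, 2.00 and 1.15 (-2.18 ± 0.29, adjusted p = 0.000244), and the other 5 MCM genes were at 0.27 FPKM or less in every wild type library. The fall of CDKB1-1 was lost with 4 of the 6 libraries left out in turn (up to 0.0725). PCNA, the sliding clamp, was lower in every heated library without passing (19.6, 15.4 and 22.5 against 13.0, 14 and 13.3 FPKM).

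Clock and light genes moved in both directions, with 4 of 11 higher and 3 lower, beside 13.3% and 15.8% of all loci. PRR95, a repressor of the central loop, went from 0.43, 0.37 and 0.65 FPKM to 14.7, 15.2 and 5.22 (2.98 ± 0.40, adjusted p = 0.000259). LUX, of the evening complex, went from 20.2, 6.86 and 16.4 FPKM to 71.8, 35.5 and 84.9 (2.1 ± 0.40, adjusted p = 0.00207). The calls of PRR1 and PRR73 were lost with 3 and 5 of the 6 libraries left out in turn. LHY, the morning factor, was spread widely, with 103, 147 and 132 against 70.1, 159 and 38.8 FPKM, and did not pass. The phytochromes, red light receptors, fell, all 3 of them. PHYB went from 27.9, 28.5 and 29.3 FPKM to 18.7, 19.9 and 13.6 (-0.70 ± 0.18, adjusted p = 0.0116), while the calls of PHYA and PHYC ended with 4 and 3 of the 6 libraries left out. Without the pair that stood apart none of the 3 passed (adjusted p from 0.0615 to 0.132). No source used here gives the hour of sampling, and for these genes temperature and hour cannot be told apart.

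Of 7 tested metallothionein and iron genes 2 rose and none fell, a share of 28.6% beside the 29.1% over all loci. MT2A, a metallothionein, read 782, 919 and 1054 FPKM at 29 °C and 1984, 2713 and 1171 at 45 °C, with a call lost with 5 of the 6 libraries left out in turn (up to 0.136). MT2B did not pass (709, 207 and 423 against 402, 182 and 196 FPKM). Of 9 iron genes 5 were below the filter. IRO3, a repressor of iron uptake genes, rose to 2.17 times its level at 29 °C, a call lost with 4 of the 6 libraries left out (up to 0.0911), and NAS3 did not pass (6.88, 4.74 and 3.15 against 1.97, 1.58 and 0.28 FPKM). Of the reference transcripts, GAPC2 (129, 128 and 154 against 117, 118 and 121 FPKM) and ACT1 did not pass, with differences of -0.20 and -0.29.

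Outside the lists, the largest changes were at loci for which no name could be checked against the RefSeq table, and they are given by locus only. LOC_Os01g68290 rose from 0, 1.25 and 0.73 FPKM to 1588, 1182 and 1316 (9.75 ± 0.29, adjusted p = 1.88e-09), and LOC_Os04g28420 from 0, 0.66 and 0.51 to 369, 373 and 208 (7.82 ± 0.35, adjusted p = 1.45e-07). The first of these differed by more than any small heat shock protein and was as high in replicate 3 as in the other heated libraries. LOC_Os10g36500 fell from 141, 78.1 and 194.8 FPKM to 0.12, 0.34 and 0.25 (-6.72 ± 0.31, adjusted p = 1.45e-07). LOC_Os12g33150 fell from 1098, 2029 and 1251 FPKM to 40.7, 87.2 and 12.6 (-5.26 ± 0.70, adjusted p = 0.000214).

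Whether the wild type response differed from that of the libraries labelled double mutant was tested as an interaction in the same fit. Of 20305 loci 3 passed (0.0148%), and 1039 had an unadjusted p under 0.05. None of the 247 tested list genes passed, and 25 of them had an unadjusted p under 0.05. The loci that passed read at most 1.4 FPKM in wild type seedlings, and none of them passed in the wild type heat comparison. They met the filter on low values only through the mutant line at 29 °C, where they were high. At LOC_Os10g20890 the wild type groups did not overlap (0.11, 0.09 and 0 against 0.41, 0.66 and 0.94 FPKM, adjusted p = 0.088). A p above the threshold does not show that the responses were equal.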

How the data were processed

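Poly(A) RNA libraries with molecular identifiers were sequenced, and the deposited values are FPKM per locus, 1 column a library, per the file headers; tools listed in the submitters' processing notes include HISAT2 2.0.4 and StringTie 1.3.4d, with no step assigned to either. No source used here gives the genome build, and no coordinates are printed; depth is unknown. Wild type columns match the titles, and the mutant columns were assigned by elimination. From the deposited FPKM, log2(FPKM + 1) was computed for the 20305 of 42004 loci that reached FPKM 1 in 3 or more of the 12 libraries. Group means of the 4 groups were fitted with limma 3.58.1 in R 4.3.3, with a trend on intensity and all 12 libraries. The fit was also run on simulated data. These had independent noise at each locus and no library effects, so they cannot show how calls fare with libraries that stand apart. The contrast was WT_45C minus WT_29C, and the interaction came from the same fit. Exact permutation used scipy 1.17.1. No library pairs were identical (0 found).

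The members and gene lists were chosen with earlier results of these data known. Names were entered by hand as 422 pairs of name and locus from published assignments, and 292 were kept whose name is in the RefSeq gene table (ASM3414082v1) on the same chromosome and within 2.5 Mb of the place that the 7 nearest pairs predict. That tolerance was widened so that LHY, which has no near neighbours among the pairs, was kept, and a few names were matched through published synonyms. Named in the text are, per list, the 3 passing genes with the largest difference at a mean FPKM of 5 or more, the 2 passing genes with the highest mean and the 1 with the highest mean that did not pass, GRP3, GRP162, and the 2 loci outside the lists that rose and the 2 that fell most; other list members were named after their values were seen. Alternatives were another pseudocount, other filters, TPM, median-of-ratios and quantile scaling, fewer libraries and a replicate block.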

Additional observations from a re-analysis of the deposited data

Results flagged for a closer look

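A limma interaction between heat and line passed at 3 loci, for the libraries labelled double mutant against the wild type (adjusted p = 0.0446 for each). Each locus met the filter on low values only through the mutant line at 29 °C, the group where it was high. The call rests on the group that let the locus into the test, and it is no independent evidence of a differing heat response. The interaction was -2.16 at LOC_Os02g36830, -3.20 at LOC_Os04g03050 and -2.74 at LOC_Os10g20890 on the log2 scale. LOC_Os02g36830 was listed at 0 in all 6 wild type libraries and read 3.77, 3.33 and 3.57 FPKM in the mutant line at 29 °C. LOC_Os04g03050 read 0.31 to 1.4 FPKM in the wild type and 10.5, 15.4 and 10.02 in the mutant line at 29 °C. LOC_Os10g20890 read at most 0.94 FPKM in the wild type and 11.2, 9.0 and 4.99 in the mutant line at 29 °C. The calls were made in few of the alternative settings.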

How the results depend on the processing

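No called locus changed direction with a call in any of the 16 alternative settings, and 76 of the 117 called list genes kept their call wherever they were tested, 69 in all 16 settings and 7 in 15 (they fell below the filter at FPKM 5); 83 kept it with each wild type library left out in turn. With 1 wild type library left out, between 1791 and 2623 loci rose and between 2255 and 3272 fell, the low value of 1791 without WT_45C replicate 1. Leaving out WT_29C replicate 2 with WT_45C replicate 3, an alternative chosen after seeing the data, left 2087 and 2370, and ended the calls of 26 list genes, among them RR9, AOC, CPS1 and PHYB. The fit of the wild type libraries alone gave 2386 and 2725. Median-of-ratios scaling gave 3549 and 3291, TPM 2925 and 3347, and quantile scaling 3109 and 3560. The interaction calls numbered 0 with a pseudocount of 0.1, at a filter of FPKM 5, in TPM, without both replicate 1 libraries of the mutant line, without the pair of wild type libraries, and with any single wild type library left out (0 to 0). The difference in loci detected was 362 at FPKM 0.5 (exact p = 0.1) and -198.7 at FPKM 5 (0.7), and between 29.0 and 297.5 with 1 library left out. Of 131 genes that did not pass, 39 changed sign in at least 1 setting. Over all settings RCA ran from -0.27 to 0.45, RAB16C from -0.38 to 0.53, JAZ10 from -0.89 to 2.0 and JAZ6 from -1.2 to 0.0059. With 1 wild type library or the pair left out, PIP1-1 ran from -0.042 to 0.54, PBZ1 from -0.86 to 1.89, CYP701A8 from -0.42 to 0.83 and SPP2 from -0.067 to 0.16. Without WT_45C replicate 3 alone PBZ1 was at -0.66 and CYP701A8 at -0.33, without WT_45C replicate 1 SPP2 was at -0.0026, and GS2 was at 0.072 with quantile scaling. The cause was not tested. Same-numbered libraries did not deviate together (correlations of -0.032, -0.026 and -0.122). With 3 libraries a group this cannot show whether same-numbered libraries were collected or processed together. With a replicate block 2691 loci rose, 3106 fell and 1 interaction call was left.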
